A study of Sus scrofa with 15 samples.

Results

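G protein-coupled receptors (GPCRs) for hormones, lipids and nucleotides were examined in porcine natural killer (NK) cells of blood and liver. The set held 9 genes, *PTH1R*, *PTAFR*, *ADORA2A*, *PTGER2*, *PTGER4*, *P2RY10*, *LPAR6*, *GPR183* and *GPR174*, of the 29886 genes in the count table. They were picked by gene symbol as receptors other than chemokine receptors, with earlier results of these same libraries known. Their differences between populations are therefore given as a description, without a p-value. All 9 symbols were found, and all 9 passed the filter on low counts that left 10939 genes to test.

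A 3′ RNA sequencing method was applied to 3 NK cell populations of the same 5 pigs, 6 months old. The animals carried no treatment or engineered allele that the labels name. Conventional NK (cNK) cells came from blood mononuclear cells and were CD3−CD172a−CD8αhigh. Conventional liver NK cells with the same CD3−CD172a−CD8αhigh phenotype and liver-resident NK (lrNK) cells, which were CD3−CD172a−CD8αdim, both came from fluid flushed through the portal vein. Each population had 5 libraries, 1 per pig, so pig 1 to pig 5 carry the same number in all 3. All liver cells were those that the flush released, and the gate used no marker that is exclusive to NK cells.

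GPCRs bind a ligand outside the cell and switch on a G protein inside it. Receptors that couple to the stimulatory G protein raise cyclic AMP (cAMP), a messenger that restrains killing and cytokine release by NK cells, and the prostaglandin E2 receptors *PTGER2* and *PTGER4* and the adenosine receptor *ADORA2A* are of this kind. *GPR174*, a lysophosphatidylserine receptor, also raises cAMP and restrains lymphocytes. The lysophospholipid receptors *LPAR6* and *P2RY10* and the oxysterol receptor *GPR183* are known for other roles, of which guiding lymphocyte position by *GPR183* is the best described.

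The libraries held from 2003499 to 5680221 counts, with 2003499 to 3776823 in lrNK cells. Levels are given as CPM, a gene's counts relative to the library's total, after scaling of the library sizes, and a count of 3, taken as the limit of detection, stood for 0.517 to 1.46 CPM. Defining NK cell genes were present in all libraries, with a summed level of 13 markers between 3918 and 7790 CPM. The sum hides opposite changes. Against blood, 6 of the 13 were called higher in lrNK cells and 4 lower, next to 8.62% and 9.6% of all genes. The summed markers of 3 other cell types moved with the lrNK population without overlap. The sum of 8 B cell markers was 286 to 819 CPM in lrNK libraries, 59.4 to 156 CPM in blood and 33.2 to 71.8 CPM in liver CD8αhigh cells, with *CD79A* at 0 throughout. The sum of 6 dendritic cell markers was 448 to 639 CPM in lrNK libraries and 176 to 298 CPM in the others, with *CLEC9A* at 0 throughout. The sum of 7 T cell markers was lower in lrNK libraries, at 110 to 593 CPM next to 637 to 1203 CPM in the others, with *CD4*, *CD5* and *CD28* at 0 throughout. Monocyte and macrophage markers summed to 25.6 CPM or less, and *LYZ*, the only one tested, was called higher in lrNK (8.56 ± 9.86 CPM) than in liver CD8αhigh cells (0.365 ± 0.508 CPM; adjusted p = 0.0272), with *CSF1R*, *CD163*, *MARCO*, *C1QA* and *C1QB* at 0, granulocyte markers to 1.81 CPM or less and hepatocyte markers to 9.74 CPM or less. Endothelial markers summed to 14.1 CPM or less. Platelet and erythroid markers summed to 76.4 to 395 CPM in blood, 89.9 to 154 CPM in liver CD8αhigh and 95.5 to 178 CPM in lrNK libraries. The lrNK library of pig 3 and the liver CD8αhigh library of pig 1 lay apart from their groups in an earlier look at all genes, and values without them are given where they mattered.

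The clearest pattern among the 9 receptors was near absence of *PTH1R* and *PTAFR* transcripts in lrNK cells. *PTH1R*, on chromosome 13 from 29749940 to 29775361 of Sscrofa11.1, encodes the receptor for parathyroid hormone and its related protein, known mainly from bone and kidney. In blood cNK cells of pigs 1 to 5 its level was 309.7, 267.2, 303.9, 335.0 and 303.0 CPM. In liver CD8αhigh cells the levels were 169.6, 205.7, 224.4, 277.3 and 247.9 CPM. The 5 lrNK libraries held 14, 0, 1, 5 and 6 counts of *PTH1R*, or 5.81, 0, 0.487, 1.404 and 1.57 CPM. All lrNK libraries thus lay far below all others, and pigs 2 and 3 were under the limit of detection. Means were 304 ± 24.2 CPM in blood, 225 ± 41.0 CPM in liver CD8αhigh and 1.85 ± 2.31 CPM in lrNK cells (SD, n = 5 each). On the log2 scale lrNK cells differed from blood by -7.31 ± 0.39 (SE), a level 159-fold lower, and from liver CD8αhigh cells by -6.88 ± 0.38. The highest lrNK level, that of pig 1, made these differences smaller. Without that pig the value against blood was -8.16 and the one against liver CD8αhigh cells was -7.83. In bulk RNA, fewer cells carrying a transcript and less of it per cell cannot be told apart.

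*PTAFR*, on chromosome 6 from 85235390 to 85272360, encodes the receptor for platelet-activating factor, a phospholipid that activates many leukocytes. Its levels in pigs 1 to 5 were 302.1, 434.2, 526.2, 334.6 and 447.0 CPM in blood cNK cells. Liver CD8αhigh cells held 309.4, 449.1, 442.2, 437.4 and 528.3 CPM, so these populations overlapped almost completely. In lrNK cells 5, 2, 0, 11 and 34 counts were found, or 2.08, 0.96, 0, 3.09 and 8.88 CPM. Again no lrNK library came near any CD8αhigh library. In *PTAFR* the log2 fold change of lrNK cells was -6.87 ± 0.43 against blood and -6.95 ± 0.43 against liver CD8αhigh cells. Pig 5 had the highest lrNK level, and without it these values were -7.82 and -7.86. The difference between the CD8αhigh populations was 0.08 ± 0.30, with 4 pigs higher in liver and 1 lower.

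**Figure D1:**
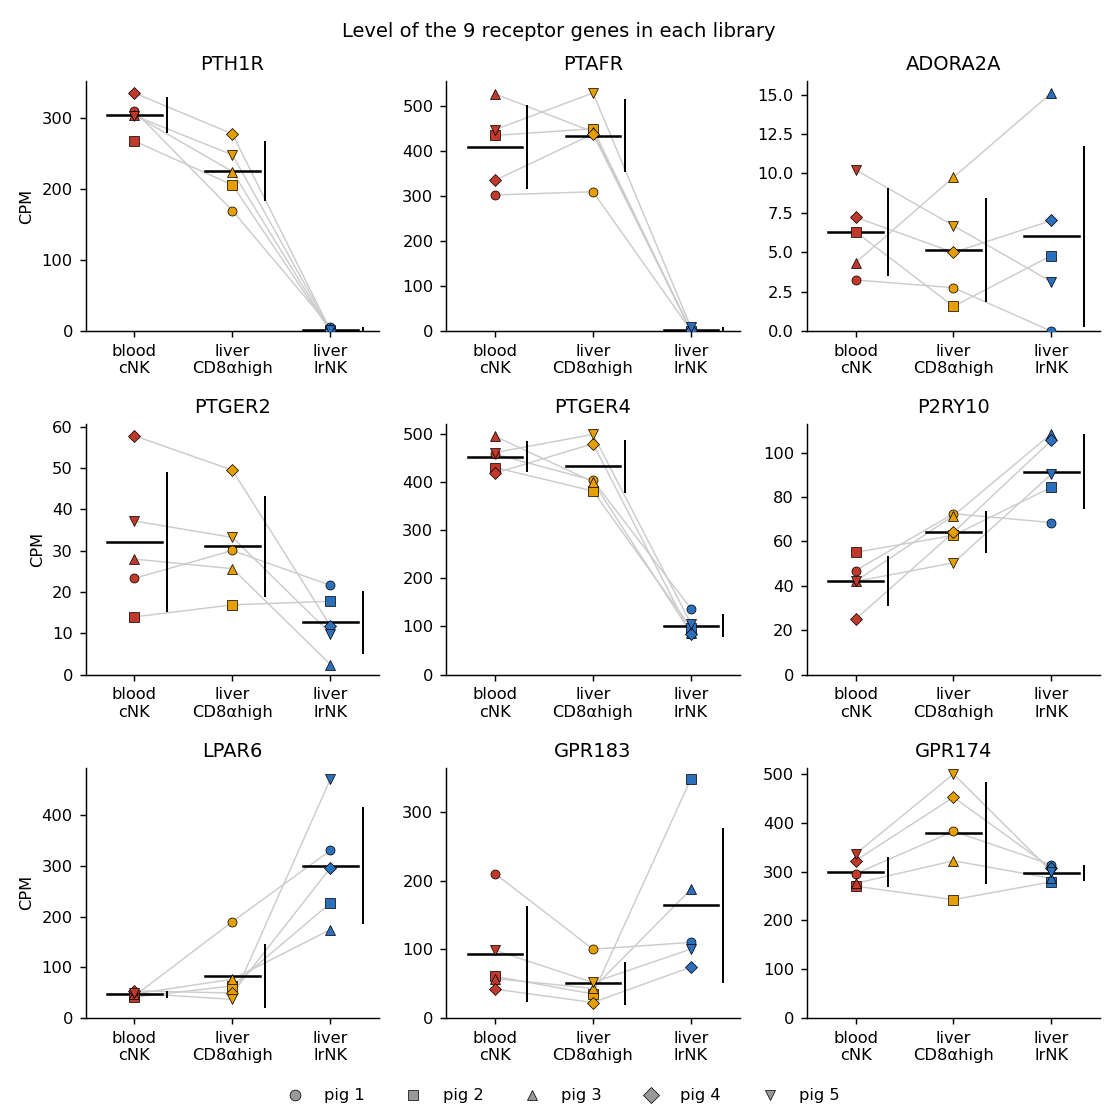
Level of the 9 receptor genes in each of the 15 libraries, in CPM on a linear axis that starts at 0, by population; symbols mark the pig, grey lines join libraries of a pig, and horizontal and vertical bars give the mean and SD (n = 5). *PTH1R* and *PTAFR* drop to between 0 and 8.88 CPM in lrNK cells, *PTGER4* is lower in all 5 lrNK libraries, *LPAR6* is higher, and *ADORA2A* is low everywhere.

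Of the prostaglandin E2 receptors that are members, *PTGER4* was also lower in lrNK cells, but transcripts remained, and *PTGER2* was lower in 4 of 5 pigs. *PTGER4* (chromosome 16, 25670832 to 25686556) encodes the EP4 receptor. Its levels in pigs 1 to 5 were 457.4, 429.5, 494.4, 417.7 and 460.6 CPM in blood, with a coefficient of variation of only 6.62%. Liver CD8αhigh cells held 403.0, 380.8, 399.8, 479.0 and 498.2 CPM. In lrNK cells the levels were 136.6, 97.0, 86.2, 83.4 and 105.8 CPM. The highest lrNK library was thus below the lowest CD8αhigh library of either tissue, in a narrow range in each population. The log2 fold change of lrNK cells was -2.15 ± 0.16 against blood, 4.44-fold lower, and -2.09 ± 0.16 against liver CD8αhigh cells. All 5 pigs had this direction in both comparisons, and over all alternative settings the values stayed between -2.26 and -1.98.

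*PTGER2* (chromosome 1, 181993961 to 182009959) encodes the EP2 receptor, which responds to the same ligand. Its levels were 23.3, 13.98, 27.95, 57.8 and 37.2 CPM in blood of pigs 1 to 5 and 30.0, 16.9, 25.7, 49.5 and 33.2 CPM in liver CD8αhigh cells. In lrNK cells 21.6, 17.8, 2.44, 11.8 and 9.92 CPM were measured. The groups overlapped, since pig 2 had more *PTGER2* in lrNK cells than in either CD8αhigh population, and the other 4 pigs had less. For *PTGER2* the log2 fold change was -1.33 ± 0.44 against blood and -1.29 ± 0.44 against liver CD8αhigh cells. The difference from liver CD8αhigh cells was not called, except with DESeq2, without a filter on low counts or without pig 2, and its values ran from -1.59 to -1.03. The difference from blood was called in part of the settings, with values from -1.68 to -0.98. It was not called without pig 3, 4 or 5, without the lrNK library of pig 3 alone, or when only these 2 populations were fitted. In the annotation used here *PTGER2* overlaps *PTGDR*, a prostaglandin D2 receptor gene, by 12415 bases. The strand setting of the counting is not given in the sources used here, so reads of the overlap cannot be assigned to one gene.

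Other prostanoid receptors did not all move with these receptors; they were chosen for mention after their values were seen, apart from *TBXA2R*. *PTGDR* fell from 326 ± 105 CPM in blood to 80.4 ± 14.5 CPM in lrNK cells (SD, n = 5 each), by 2.02 ± 0.24 on the log2 scale with an adjusted p of 3.44e-06. *PTGER3*, which encodes the EP3 receptor that lowers cAMP through an inhibitory G protein, went in the opposite direction to *PTGER4*. It rose from 38.8, 58.9, 48.3, 106.2 and 81.2 CPM in blood of pigs 1 to 5 to 223.4, 193.0, 226.5, 371.5 and 299.3 CPM in lrNK cells, without overlap. Its log2 fold change was 1.98 ± 0.24 against blood (adjusted p = 4.36e-06) and 1.39 ± 0.24 against liver CD8αhigh cells (adjusted p = 2.75e-04). *TBXA2R*, the thromboxane receptor gene, was low in all populations. Its lrNK libraries held 0, 1.44, 0, 2.25 and 0 CPM, and the difference from blood was -3.48 ± 0.81 on the log2 scale (adjusted p = 0.00404). Without pig 4 this value was -4.74. *PTGDR2* did not pass the test (0.57 ± 0.61, adjusted p = 0.59).

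**Figure D2:**
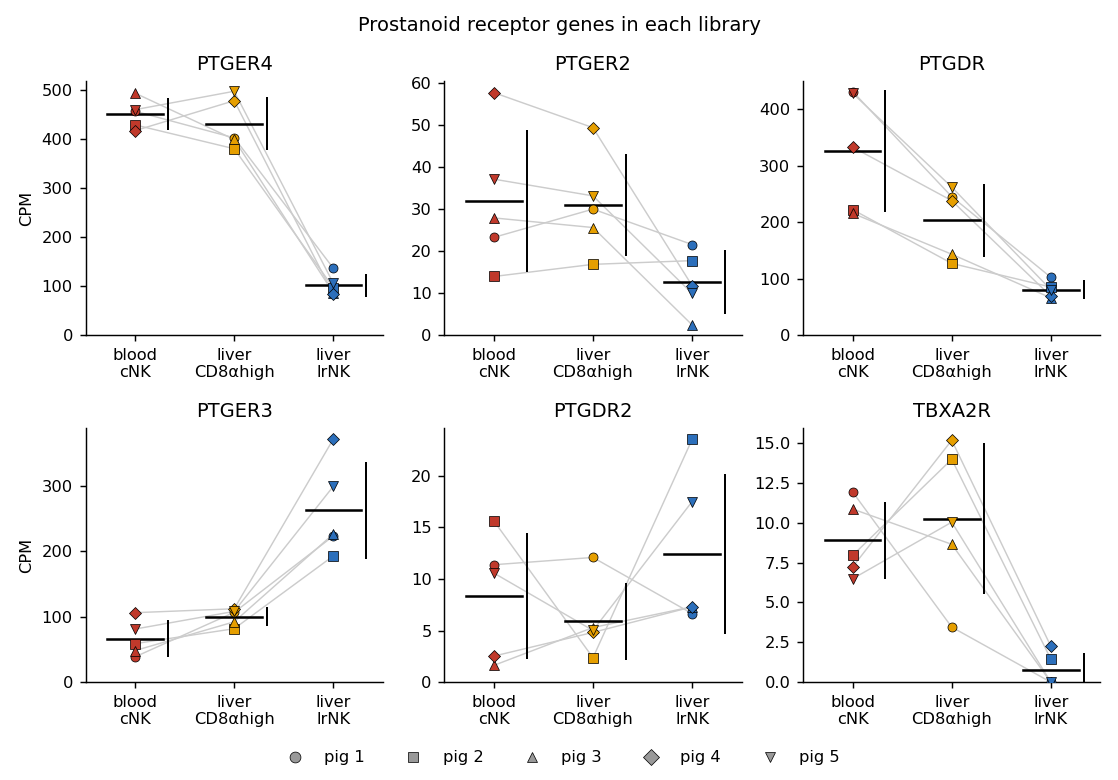
Level of 6 prostanoid receptor genes in each library, in CPM on linear axes from 0, by population, with the mean and SD as bars (n = 5) and a symbol for each pig. *PTGER4*, *PTGER2*, *PTGDR* and *TBXA2R* have their lowest means in lrNK cells, while the lowest lrNK level of *PTGER3*, 193 CPM, lies above the highest of the other populations, 112 CPM.

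Among the lysophospholipid receptors, *LPAR6* and *P2RY10* had more transcript in lrNK than in blood cells, and *GPR174* did not. *LPAR6* (chromosome 11, 19216305 to 19220913) encodes a receptor for lysophosphatidic acid. In blood cNK cells of pigs 1 to 5 its levels lay close together, at 43.4, 41.1, 47.2, 53.5 and 48.8 CPM. Liver CD8αhigh cells held 190.3, 63.0, 76.4, 49.1 and 36.5 CPM, where pig 1 was far above the other 4. The same liver library was also the highest of its group for *EOMES* (218 CPM, group median 38.6), *CXCR6* (153 CPM, median 23.2) and *NCR1* (167 CPM, median 34.9). The lrNK medians of these genes were 713, 700 and 297 CPM. Whether lrNK cells in that library raised its *LPAR6* level was not tested. In lrNK cells the *LPAR6* levels were 331.0, 227.0, 174.4, 296.6 and 472.0 CPM. All lrNK libraries were above all blood libraries, and the only overlap in the liver was between the lrNK library of pig 3 and the CD8αhigh library of pig 1. The log2 fold change of lrNK cells was 2.68 ± 0.35 against blood, 6.43-fold higher, and 1.86 ± 0.34 against liver CD8αhigh cells, 3.64-fold higher, with all 5 pigs in this direction. *LPAR6* lies within *RB1*, the gene of a cell cycle regulator, in this annotation. *RB1*, also named after its values were seen, rose in lrNK cells by 1.59 ± 0.25 on the log2 scale against blood (adjusted p = 7.13e-05), so the share of *LPAR6* counts that came from *RB1* transcripts cannot be told apart.

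*P2RY10* and *GPR174* encode receptors for lysophosphatidylserine and are near neighbours on chromosome X, at 63112517 to 63128280 and 63288948 to 63327621, with 1 uncharacterised locus between them. *P2RY10* had 46.9, 55.1, 42.1, 24.9 and 42.0 CPM in blood of pigs 1 to 5. Levels in liver CD8αhigh cells were intermediate, at 72.5, 62.8, 71.7, 64.1 and 50.4 CPM, and higher than in blood in all 5 pigs. In lrNK cells 68.5, 84.5, 108.6, 105.6 and 90.4 CPM were found. The lrNK libraries lay above all blood libraries, but pig 1 had slightly less in lrNK than in liver CD8αhigh cells. Its log2 fold change was 1.11 ± 0.21 for lrNK against blood, 0.51 ± 0.21 for lrNK against liver CD8αhigh cells and 0.60 ± 0.21 for liver CD8αhigh cells against blood, and only the first was called.

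*GPR174* was the member that changed least between lrNK cells and blood. Blood of pigs 1 to 5 held 295.4, 270.0, 275.7, 322.3 and 335.7 CPM, and lrNK cells 314.0, 278.9, 285.9, 307.0 and 299.8 CPM. Liver CD8αhigh cells spread more widely, at 382.6, 242.3, 322.0, 452.2 and 500.1 CPM, and were highest in 4 of 5 pigs. The log2 fold change of lrNK cells against blood was -0.01 ± 0.17, and against liver CD8αhigh cells -0.35 ± 0.17. The neighbouring lysophosphatidylserine receptor genes thus did not follow the same order of populations. The third gene of this ligand, *GPR34*, had a mean of 10.5 ± 7.44 CPM in lrNK and 1.92 ± 1.44 CPM in blood cells and did not pass the test (2.42 ± 1.16 on the log2 scale, adjusted p = 0.169). *LPAR5*, another lysophosphatidic acid receptor gene, went the opposite way to *LPAR6* and fell from 74.7 ± 13.3 CPM in blood to 14.99 ± 13.2 CPM in lrNK cells (-2.37 ± 0.45 on the log2 scale, adjusted p = 6.81e-04). Without pig 3 the change of *LPAR5* was -2.96.

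*GPR183*, also called EBI2, encodes an oxysterol receptor that guides B cells, T cells and dendritic cells within lymphoid tissue. It lies on chromosome 11 from 68231851 to 68248627. Its levels varied widely within each population, with coefficients of variation of 59.2% to 73.0%. Blood of pigs 1 to 5 held 210.3, 60.6, 57.3, 41.9 and 98.6 CPM, and liver CD8αhigh cells 100.1, 34.8, 42.9, 22.4 and 51.6 CPM. In lrNK cells the levels were 110.1, 348.5, 187.5, 74.1 and 100.3 CPM. All groups overlapped, but within each pig the liver CD8αhigh library was the lowest of the 3. *GPR183* differed in lrNK cells by 1.71 ± 0.46 on the log2 scale against liver CD8αhigh cells, with 5 of 5 pigs higher, and 0.80 ± 0.45 against blood, with 4 of 5 pigs higher. Pig 1 had the highest *GPR183* in blood and pig 2 in lrNK cells, and these decided the second value. It was 1.46 and called without pig 1, and 0.20 without pig 2. Against liver CD8αhigh cells the call was lost without pig 2, with a value of 1.12, or without pig 3.

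B cells are known to express *GPR183* and *P2RY10* and dendritic cells *GPR183*, and most tested markers of both were higher in the lrNK libraries. The sort for CD8α and against CD3 and CD172a would remove most B cells and the dendritic cells that carry CD172a. Of 7 tested B cell markers 6 passed the test as higher in lrNK cells against blood and 6 against liver CD8αhigh cells. The mean of *MS4A1*, which encodes CD20, was 267 ± 134 CPM in lrNK, 29.6 ± 20.5 CPM in blood and 7.50 ± 9.70 CPM in liver CD8αhigh cells (SD, n = 5 each). The summed markers in lrNK cells of pigs 1 to 5 were 550, 819, 286, 815 and 317 CPM. The highest sum and the highest *GPR183* level both fell on pig 2, whereas pig 4, with nearly the same sum, had the lowest lrNK level of *GPR183*. Of 4 tested dendritic cell markers *XCR1*, *TCF4* and *CD1D* passed the test as higher in lrNK cells against both CD8αhigh populations. The other, *ZBTB46*, did not pass and had 1.84 ± 0.70 CPM in lrNK and 5.21 ± 3.70 CPM in blood cells, lower in 4 of 5 pigs, and *FLT3* and *CLEC9A* were at 0 in lrNK cells. *CD1D* held most of the sum, at 448 ± 81.3 CPM in lrNK and 217 ± 29.1 CPM in blood cells (SD, n = 5 each), while *XCR1* was at 4.32 to 11.7 CPM in lrNK libraries and at most 0.345 CPM elsewhere. The summed dendritic cell markers in lrNK cells of pigs 1 to 5 were 639, 448, 467, 487 and 496 CPM, lowest in pig 2, which had the most *GPR183*. Of 3 tested T cell markers *CD3G*, which made up nearly all of their sum, was lower in lrNK cells (289 ± 201 CPM) than in blood (865 ± 206 CPM) and liver CD8αhigh cells. *CD3D* did not pass the test, with 8.43 ± 4.67 CPM in lrNK and 3.78 ± 2.16 CPM in blood cells, higher in 4 of 5 pigs, nor did *CD3E*. The part of these cells in the levels of *GPR183*, *P2RY10* and *LPAR6* was not tested. *GPR183* also lies within *UBAC2* in the annotation, and *UBAC2*, named after its values were seen, fell in lrNK cells (log2 fold change -1.46 ± 0.17 against blood, adjusted p = 1.99e-06).

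**Figure D3:**
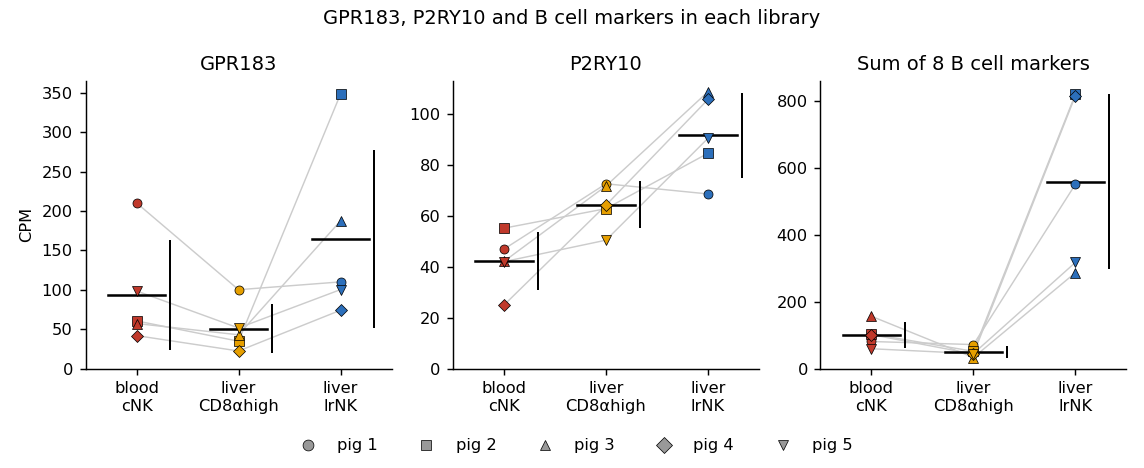
Level of *GPR183*, of *P2RY10* and of 8 summed B cell markers in each library, in CPM on linear axes from 0, by population, with the mean and SD as bars (n = 5) and a symbol for each pig. The B cell sum reached 286 to 819 CPM in lrNK libraries and at most 156 CPM elsewhere, and pig 2 had the highest lrNK level of both *GPR183* and the sum.

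*ADORA2A* (chromosome 14, 49467186 to 49485845), the adenosine receptor best known for restraining lymphocytes, was low in all populations. It had 12, 23, 16, 20 and 30 counts in blood of pigs 1 to 5, 8, 6, 35, 29 and 28 counts in liver CD8αhigh cells and 0, 10, 31, 25 and 12 counts in lrNK cells. The means were 6.27 ± 2.71, 5.16 ± 3.24 and 6.01 ± 5.69 CPM, and the groups overlapped fully. The log2 fold change of lrNK cells against blood was -0.07 ± 0.76, and it moved between -0.83 and 0.35 with the alternative settings. A 2-fold difference in either direction lay within 2 SE of 0 and was not detectable with these libraries, where the spread between pigs was wide. *ADORA2B*, the other adenosine receptor gene that was tested, had 10.3 ± 4.60 CPM in lrNK and 10.9 ± 6.01 CPM in blood cells and did not pass the test (-0.07 ± 0.44 on the log2 scale, adjusted p = 0.941).

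Counted over the members, lrNK cells differed from blood cNK cells in 6 of 9 receptors at an adjusted p under 0.05, while 18.2% of the 10939 genes tested were called. Nothing can be read from this share, since the members were picked with these results known. *P2RY10* and *LPAR6* were higher, which 8.62% of all genes were, and *PTH1R*, *PTAFR*, *PTGER2* and *PTGER4* were lower, as were 9.6% of all genes. Against liver CD8αhigh cells 5 of 9 were called, next to 14.6% of all genes: *LPAR6* and *GPR183* were higher (6.96% of all genes), and *PTH1R*, *PTAFR* and *PTGER4* lower (7.68%). No overlap between lrNK and blood libraries was found for 5 members, *P2RY10*, *LPAR6*, *PTH1R*, *PTAFR* and *PTGER4*, with 13.5% of all genes in this class, 6.18% higher and 7.33% lower. Between lrNK and liver CD8αhigh libraries it was found for *PTH1R*, *PTAFR* and *PTGER4*, all lower, with 11.9% of all genes, 5.18% higher and 6.67% lower.

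The comparison of liver CD8αhigh with blood cNK cells asks whether receptors differ between cells of the same CD8α level in liver and blood. By edgeR 0 of 9 members were called, next to 0.064% of all genes, by DESeq2 likewise 0, and 2 members, *P2RY10* and *LPAR6*, had an unadjusted p under 0.05, as did 5.02% of all genes, from which nothing is read about the members. The log2 fold changes ran from -0.91 ± 0.46 for *GPR183*, lower in all 5 pigs, to 0.82 ± 0.34 for *LPAR6*, higher in 3 of 5. The latter rested on the liver library of pig 1, and it was 0.25 without that pig. *PTH1R* was lower in liver in all 5 pigs (-0.43 ± 0.26), *PTGER4* differed by -0.06 ± 0.15 and *PTGER2* by -0.04 ± 0.42. Where lrNK cells and the CD8αhigh populations are compared the same lrNK libraries enter both differences, so these are not independent of each other.

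**Figure D4:**
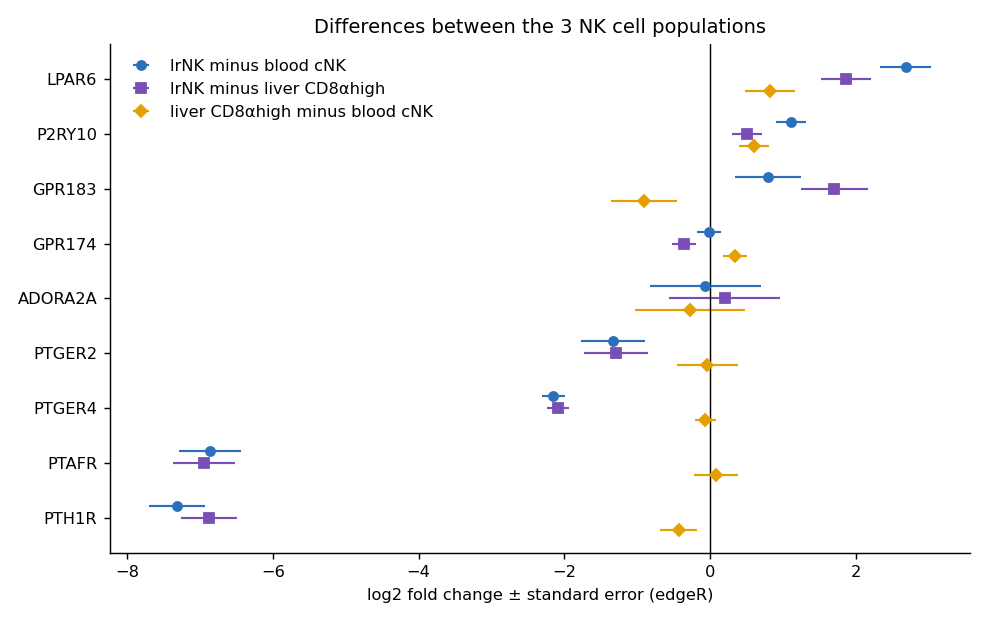
Log2 fold change of the 9 receptor genes in the 3 comparisons between populations (horizontal axis, edgeR), with bars of 1 standard error; positive values are higher in the first population named. Differences between liver CD8αhigh and blood cells lie between -0.91 and 0.82, while those of lrNK cells reach -7.31 for *PTH1R* and 2.68 for *LPAR6*.

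Some of the members varied alike over the 15 libraries. Log2 CPM of *PTH1R* correlated with that of *PTGER4* (r = 0.99) and *PTAFR* (r = 0.97), and *LPAR6* ran opposite to *PTGER4* (r = -0.87). *GPR174* and *ADORA2A* had no strong relation to any member, with r from -0.33 to 0.50 and from -0.33 to 0.13. The libraries share pigs and populations, so these values describe mostly the difference between populations and carry no p-value. Of 7001 genes with at least 20 CPM in a population, those most like *PTH1R* were *SRGAP3* (r = 0.994), *EMP1* (0.990) and *SYTL2* (0.989), and those most like *PTAFR* were *PTPN4* (0.989), *TBX21* (0.984) and *S1PR5* (0.981). *PTGER4* was most like *KIF7* (0.994), *RFX2* (0.991) and *EXOC3L2* (0.990), and *LPAR6* most like *ARHGAP18* (0.973), *WNT5B* (0.970) and *C1H15orf48* (0.969). For *PTGER2* (*LOC110259165*, 0.924), *P2RY10* (*RAB29*, 0.917) and *GPR183* (*MAML2*, 0.892) the nearest gene was less close, and for *ADORA2A* (*ATP5C1*, 0.803) and *GPR174* (*VRK2*, 0.683) least. After removal of the population means, 8 of the 27 nearest genes stayed in the list. With a prior count of 0.5 in place of 2, 20 of the 27 stayed, but 0 of the 3 of *ADORA2A*.

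Lists of related genes, written by known function, show where other parts of these pathways lay. Of 14 tested lipid receptor genes other than the members, 8 fell and 3 rose in lrNK cells against blood, with a median log2 fold change of -0.63 next to 0.01 over all genes, of which 18.2% were called. *GPR55*, a receptor of lysophosphatidylinositol, fell by 2.59 on the log2 scale (adjusted p = 2.51e-09), and *CYSLTR2*, a leukotriene receptor gene, rose by 3.29 ± 0.88 (adjusted p = 0.0107), a call that was lost without pig 1 or pig 4 and a value of 4.14 without pig 2. Of 5 tested genes of the nucleotide list 4 were called, next to the same 18.2%: *P2RY1*, *P2RY8* and *P2RY14* fell and *P2RY11* rose in lrNK cells. *P2RY1*, an ADP receptor gene, changed from 35.2 ± 16.4 CPM in blood to 2.60 ± 3.10 CPM (-3.89 ± 0.62 on the log2 scale, adjusted p = 1.09e-04). *P2RY11*, an ATP receptor gene, went from 1.02 ± 1.64 to 20.5 ± 10.9 CPM (4.32 ± 0.91, adjusted p = 0.00172). Without pig 2 the change of *P2RY1* was -4.99, and without pig 5 that of *P2RY11* was 5.82.

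Downstream of the receptors, 6 of 32 tested cAMP pathway genes fell and 4 rose in lrNK cells against blood, a share of 31.25% next to 18.2% of all genes. The adenylyl cyclase gene *ADCY7* fell from 501 ± 101 to 176 ± 59.9 CPM (-1.50 ± 0.22 on the log2 scale, adjusted p = 4.21e-05), and the protein kinase A subunit gene *PRKAR1B* fell by 4.96 ± 0.64 (adjusted p = 7.59e-06), or by 6.17 without pig 3. *PRKX* fell by 3.68 ± 0.35 (adjusted p = 1.75e-07). *PDE4B*, a phosphodiesterase gene whose product degrades cAMP, rose from 11.4 ± 4.74 to 56.2 ± 30.4 CPM (2.29 ± 0.55, adjusted p = 0.0054). *PDE8A*, another phosphodiesterase gene, fell from 49.3 ± 21.6 to 13.9 ± 5.14 CPM (-1.83 ± 0.31, adjusted p = 2.05e-04). *AKAP5*, *AKAP11* and *CREM* rose, *AKAP11* in only 7 of 13 alternative settings. *GNAS*, the stimulatory G protein gene, did not pass the test (-0.61 ± 0.27, adjusted p = 0.125). In a fit that blocks on the pig it changed by -0.59 ± 0.17 and passed (adjusted p = 0.0224). Of 13 tested cAMP-responsive genes *CREM*, *NR4A2*, *PDE4B* and *RGS1* rose and *NR4A3* and *PDE4D* fell, the last in 8 of 13 settings. *NR4A3* fell from 150 ± 64.0 to 4.14 ± 3.80 CPM (-5.27 ± 0.51, adjusted p = 2.03e-07) while its relative *NR4A2* rose (1.97 ± 0.34, adjusted p = 2.50e-04). Of 8 receptor kinase and arrestin genes *ARRB1*, *ARRB2* and *GRK5* fell and *GRK3* rose. *ARRB2*, an arrestin gene whose product ends GPCR signals, fell from 121 ± 22.6 to 21.4 ± 7.44 CPM (-2.47 ± 0.22, adjusted p = 8.07e-08). Of 20 other G protein and effector genes *GNAI2*, *GNG2* and *GNAO1* fell, *GNAO1* in 6 of 13 settings, and 0 rose by edgeR, a share of 15% called that is below the 18.2% of all genes.

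All 9 lists together held 118 tested genes, of which 29 fell and 14 rose in lrNK cells against blood (36.4% called, next to 18.2% of all genes). Against liver CD8αhigh cells 27 fell and 12 rose (33.1%, next to 14.6% of all genes). Between liver CD8αhigh and blood cells only *NR4A2*, which encodes a nuclear receptor induced by cAMP, was called, higher in liver by 2.13 ± 0.34 (adjusted p = 0.0103), and this was lost without pig 1, 2 or 5. The comparisons share their libraries, and the lists were written with earlier results of these data known.

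**Figure D5:**
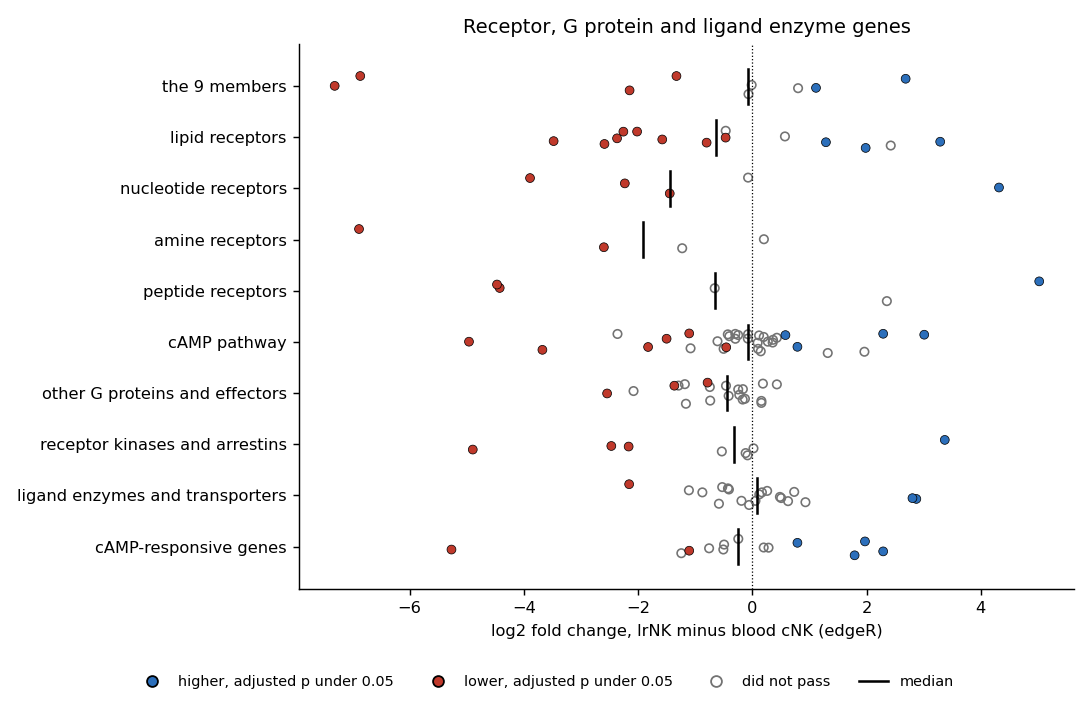
Log2 fold change of lrNK against blood cNK cells (horizontal axis, edgeR) for the 9 receptors and for each tested gene of 9 lists of related receptors, G proteins, cAMP pathway genes, receptor kinases and ligand enzymes (rows); blue and red points passed the test as higher and lower, open points did not, and black bars are medians. Calls in both directions occur in 8 of the 10 rows, and the nucleotide and amine receptor rows have the lowest medians, -1.45 and -1.91.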

How the data were processed

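RNA of 15 libraries, from 3 NK cell populations of 5 pigs, was sequenced with a 3′ mRNA kit (QuantSeq, forward version). The authors trimmed reads with QuasR and aligned them to Sscrofa11.1 with Rhisat2 (HISAT2 per the labels, version not given). Raw counts per gene were deposited. How reads were counted (tool, strand, several alignments) is not given in the sources used here. A 3′ count does not grow with transcript length. Totals were 2003499 to 5680221 counts, so genes with few counts are imprecise, and floors cover counting error only.

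The test was edgeR's (version 4.0.16, in R 4.3.3) quasi-likelihood test, with all libraries fitted together, TMM scaling, the default filter by population and Benjamini-Hochberg adjustment over 10939 genes (threshold 0.05). The standard error is the log2 fold change divided by the square root of F. CPM use the scaled library sizes. DESeq2 1.42.0 (the authors' tool), its size factors in edgeR, no filter, a filter of 10 counts in 5 libraries, a fit of only 2 populations, a replicate block and leaving out each pig were alternatives. Leaving out the lrNK library of pig 3 or the liver CD8αhigh library of pig 1 was added after seeing the data. The edgeR script was tested on simulated data.

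Members and lists were chosen with earlier results of these data known. All 9 members are named, and up to 4 genes per list and comparison that were called, had at least 10 CPM in a population and moved the same way in all 5 pigs, by size of change; some results are not reported here. Another 17 genes were named after their values were seen: *PTGER3*, *PTGDR*, *PTGDR2*, *GPR34*, *ADORA2B*, *RB1*, *UBAC2*, *HRH2*, *GLP2R*, *GCGR*, *AKAP11*, *CREM*, *GNAO1*, *GNAS*, *PER1*, *ADCY7* and *AKAP9*. So were *PDE8A* and the cell type markers given by name. Likeness is Pearson's r of log2 CPM with a prior count of 2. Coordinates are those of a RefSeq gene table of Sscrofa11.1, which gives no strand and matched 29862 genes.

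Libraries of the same number come from the same pig, as the labels and the study state. Deviations from the population means correlated by 0.107 on average within a pig and by -0.0265 between pigs. P-values measure the spread between pigs. Figures were drawn with matplotlib 3.10.9 in Python 3.11.15.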

Additional observations from a re-analysis of the deposited data

Results flagged for a closer look

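In 14 of 167 sets of 5 libraries examined (1 gene in 1 population), a library lay apart from the other 4 by more than Dixon's limit, a gap of over 0.71 of the whole range. Among the receptors this held for 2 of 27 sets, and chance gives about 1 in 20. *PTH1R* was 5.81 CPM in the lrNK library of pig 1 and at most 1.57 CPM in the others. *LPAR6* was 190 CPM in the liver CD8αhigh library of pig 1 and 36.5 to 76.4 CPM in the others. That library was also the highest of its group for *EOMES*, *CXCR6* and *NCR1*, as given above.

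Among related genes the liver CD8αhigh library of pig 2 stood apart for *P2RY8* (70.4 CPM), and that of pig 5 for *RGS2* (410 CPM), *HRH2* (9.79 CPM) and *GLP2R* (3.82 CPM). Blood libraries stood apart for *F2R* (11.9 CPM, pig 4), *PLA2G4A* (8.67 CPM, pig 1), *PLPP2* (15.2 CPM, pig 1) and *GNAO1* (23.8 CPM, pig 1). The lrNK libraries did so for *PRKX* (12.7 CPM, pig 3), *AKAP11* (119 CPM, the lowest, pig 4), *GLP2R* (0.96 CPM, pig 2) and *GCGR* (1.57 CPM, pig 5), where the other 4 libraries of the last 2 genes held 0.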

How the results depend on the processing

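The calls of *PTH1R*, *PTAFR*, *PTGER4* and *LPAR6* in lrNK cells against both CD8αhigh populations, and of *P2RY10* against blood, held in all 13 alternatives, and those of *PTGER2* and *GPR183* did not, as given with their values. Members called ranged from 5 to 7 (lrNK against blood), from 4 to 6 (lrNK against liver CD8αhigh) and 0 between the CD8αhigh populations. Over all genes, 1993 calls for lrNK against blood became 1472 to 2301 with a pig or a single library left out, and 1601 against liver CD8αhigh cells became 1051 (without pig 5) to 1764. The 7 calls between liver CD8αhigh and blood cells became 24 with DESeq2, 18 without a filter, 16 with only these populations fitted, and 0 to 12 with a pig or a library left out (2, 0, 2 and 3 without pigs 1, 2, 4 and 5, and 12 without the lrNK library of pig 3). Of the related genes, 43, 39 and 1 calls in these comparisons became 36 to 48, 31 to 40 and 0 to 1 in the same way. With the pig as a replicate block, the calls over all genes were 2120, 1716 and 8. The block ended the calls of *GCGR* against blood (adjusted p = 0.0839) and *HRH2* against liver CD8αhigh cells (adjusted p = 0.0601), added those of *GNA15*, *RGS2*, *PER1* and *AKAP9* against blood and of *GNAS* against both CD8αhigh populations, and changed no other call of a named gene. A fit without a pig lowered most counts over all genes, and other causes were not tested. No called direction reversed, and *PDE8A* and the cell type markers were not part of these checks. Genes with few counts, such as *ADORA2A*, were measured with wide errors, and the part of depth in this was not tested.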

Other observations

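Receptors of other ligand classes were mostly not measurable in these cells. Of 28 listed amine receptor genes 16 had 0 counts in all libraries and 4 were tested, of which 2 fell in lrNK cells against blood, next to 18.2% of all genes called. *HRH2*, a histamine receptor gene among these, had 7 to 30 counts in blood libraries and 0 in all lrNK libraries. Of 50 listed peptide receptor genes 26 had 0 counts in all libraries and 5 were tested. *F2R*, the thrombin receptor gene, rose from 7.81 ± 2.39 CPM in blood and 20.3 ± 16.0 CPM in liver CD8αhigh cells to 253 ± 86.7 CPM in lrNK cells, by 5.02 ± 0.49 on the log2 scale against blood (adjusted p = 1.99e-07), higher in 5 of 5 pigs. *GLP2R* and *GCGR*, both with means under 10 CPM, fell against blood, with calls in 7 of 11 and 8 of 12 alternatives that gave a value. *GCGR* was lower in only 3 of 5 pigs and higher in 1, and ran from 0 to 17.4 CPM in blood libraries.

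Of 20 tested genes of enzymes and transporters that make, break down or carry these ligands, 3 were called in lrNK cells against blood, a share of 15% that is below the 18.2% of all genes. *PLA2G4A*, the phospholipase gene that frees arachidonic acid for prostaglandins, rose from 2.85 ± 3.32 to 21.4 ± 4.62 CPM (2.87 ± 0.64 on the log2 scale, adjusted p = 0.0026), and *PLPP2*, whose product removes phosphate from lysophosphatidic acid, rose from 4.97 ± 5.83 to 35.5 ± 27.9 CPM (2.80 ± 0.77, adjusted p = 0.0134). The value of *PLPP2* was 4.01 without pig 1, and its call was lost without pig 3 or 4. *PLA2G4A* was 3.80 without pig 1. *LPCAT2*, which encodes an enzyme that makes platelet-activating factor, fell from 231 ± 96.4 to 51.3 ± 20.2 CPM (-2.16 ± 0.28, adjusted p = 7.76e-06) in the population in which *PTAFR* was nearly absent.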
